A study of Homo sapiens with 24 samples.

Results

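The mRNAs of 52 chaperone genes were followed in 2 human acute myeloid leukemia cell lines treated with RMC-7977, an inhibitor of the active, GTP-bound form of RAS. The genes were taken by symbol from a fixed list, and all 52 were found among the 13033 genes of the deposited table. By compartment they comprise 23 cytosolic genes, 8 subunits of the CCT ring, 17 genes of the endoplasmic reticulum (ER) and 4 mitochondrial genes. Molm-14 cells, labelled with an internal tandem duplication of the receptor FLT3 (FLT3-ITD), and OCI-AML3 cells, labelled with NRAS Q61L, each received DMSO (the solvent), 25 nM RMC-7977 for 2 h, or 25 nM RMC-7977 for 24 h. Each genotype is represented by 1 line, so its part in a difference between the lines cannot be told apart from that of other differences between them. Each of the 6 groups had 4 libraries of poly(A) RNA, except OCI-AML3 at 24 h, of which 3 libraries are reported, and 23 of 24 libraries entered. The labels give no time for the DMSO libraries, which were therefore the control of both times, so that comparisons with DMSO within a line share them. Independent cultures behind the libraries of a group are not labelled, and p-values then measure the spread between libraries, which may be technical.

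Chaperones bind unfolded or partly folded proteins, and some of them release these by cycles of ATP hydrolysis. In the cytosol the HSP70 proteins take up new chains with the help of J-domain proteins (DNAJ) and exchange factors, and pass clients to HSP90 with its co-chaperones or to the CCT ring, which folds actin and tubulin. In the ER, BiP (HSPA5), GRP94 (HSP90B1), the lectins calnexin and calreticulin and the protein disulfide isomerases fold secretory and membrane proteins. In mitochondria, mortalin (HSPA9) draws imported chains through the membrane and the HSPD1 and HSPE1 chamber folds them. HSF1 is the factor that drives the heat shock response through heat shock elements, and XBP1 and ATF6 act in the ER unfolded protein response through ER stress response elements. HSF1 and XBP1, though not chaperones themselves, are counted among the 52 genes and in their sums.

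The stretches upstream of the start sites carry these elements in some of the genes, and examples are shown because the elements differ between the cytosolic and the ER genes. Windows of 250 bases before a RefSeq start (GRCh38.p14) were searched on both strands for a heat shock element (GAA, 2 free bases, TTC, 2 free bases, GAA), the ER stress response element (CCAAT, 9 free bases, CCACG), the ER stress response element II (ATTGG, 1 free base, CCACG) and CACGTG (an E-box, the site bound by MYC and related factors). A window was found for 47 of the 52 genes, and not for HSF1, HSPA14, FKBP4, CCT6A and PDIA3. Below, each sequence runs 5′ to 3′ on the strand of its gene, stops before the first base that GENCODE 29 annotates as an exon of that gene, and has the matched element in capitals, which for HSP90AB1, HYOU1 and SDF2L1 stands on the opposite strand. The stretches of HSPA8 and HSP90AB1 lie within the annotated span of their genes, downstream of a more distal start. Another heat shock element in the HSPA8 window lies past the point where its printed stretch stops.
HSPA8 (chr11:123062336-123062386, minus strand, heat shock element): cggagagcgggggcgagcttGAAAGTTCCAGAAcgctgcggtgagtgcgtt
HSP90AB1 (chr6:44247693-44247865, plus strand, heat shock element, at 2 places): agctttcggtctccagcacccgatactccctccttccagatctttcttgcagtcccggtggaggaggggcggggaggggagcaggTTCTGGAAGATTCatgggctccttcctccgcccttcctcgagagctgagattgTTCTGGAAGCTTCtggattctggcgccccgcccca
HSPA5 (chr9:125241344-125241593, minus strand, ER stress response element): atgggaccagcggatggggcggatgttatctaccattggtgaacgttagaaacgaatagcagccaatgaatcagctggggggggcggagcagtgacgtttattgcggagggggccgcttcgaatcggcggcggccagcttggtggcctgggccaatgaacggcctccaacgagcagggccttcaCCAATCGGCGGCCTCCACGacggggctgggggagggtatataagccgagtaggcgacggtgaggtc
XBP1 (chr22:28800598-28800819, minus strand, ER stress response element): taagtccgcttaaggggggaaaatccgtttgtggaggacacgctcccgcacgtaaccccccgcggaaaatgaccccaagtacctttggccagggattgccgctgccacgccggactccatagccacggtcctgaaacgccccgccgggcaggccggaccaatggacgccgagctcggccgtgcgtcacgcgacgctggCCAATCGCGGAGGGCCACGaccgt
HYOU1 (chr11:119057206-119057455, minus strand, ER stress response element II, at 2 places): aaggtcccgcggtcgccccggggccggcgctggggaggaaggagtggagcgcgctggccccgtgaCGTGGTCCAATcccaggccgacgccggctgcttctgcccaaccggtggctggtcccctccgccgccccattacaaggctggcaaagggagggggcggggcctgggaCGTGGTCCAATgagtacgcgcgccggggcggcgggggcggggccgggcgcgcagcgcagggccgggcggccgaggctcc
SDF2L1 (chr22:21642052-21642260, plus strand, ER stress response element II): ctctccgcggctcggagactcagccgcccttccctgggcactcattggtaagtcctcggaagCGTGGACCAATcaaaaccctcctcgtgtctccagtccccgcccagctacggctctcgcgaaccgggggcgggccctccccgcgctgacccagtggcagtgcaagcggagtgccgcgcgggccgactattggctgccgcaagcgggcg

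The heat shock element was present in 5 of 20 cytosolic genes with a window (HSPA8, HSP90AA1, HSP90AB1, DNAJB6 and CHORDC1), in HSPD1 among the 4 mitochondrial genes, and in none of 7 CCT and 16 ER genes. Over all 27305 genes with a window, 0.557% held it. The ER stress response element was present in 7 of 16 ER genes (HSPA5, HSP90B1, CALR, CANX, PDIA6, CRELD2 and XBP1) against 0.0916% of all genes, and element II in 3 of 16 (HYOU1, SDF2L1 and HERPUD1) against 0.0659%. Neither was found in a cytosolic, CCT or mitochondrial gene. The E-box was found in HSPA9, HSPD1 and HSPE1, in HSP90B1, DNAJB9 and HERPUD1, and in 7.73% of all genes. The windows of HSPD1 and HSPE1 overlap on chromosome 2, on opposite strands, and their E-box matches are the same site. A match describes letters only, and its absence here says nothing about the factor.

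Values are counts per 1000000 reads of the effective library (CPM), recovered from deposited log2 values, and changes are log2 fold changes with their standard error (SE) from limma, with p-values adjusted over all 13033 genes by the Benjamini-Hochberg method. A gene is said to have risen or fallen where the adjusted p was under 0.05 and the change at least 2-fold, and "fell to" is followed by the log2 fold change, on which the comparison group stands at 0. The libraries had an effective size of about 15300000 to 22400000 reads, estimated from the spacing of low values. The drug's effect on its pathway was checked with DUSP6, a phosphatase induced by ERK signaling: it fell to -3.96 (SE 0.20, adjusted p = 1.12e-16) in Molm-14 at 2 h and to -5.31 (SE 0.20, adjusted p = 1.77e-19) in OCI-AML3. At 24 h it stood at -0.05 (SE 0.20, adjusted p = 0.834) in Molm-14 and had fallen to -5.56 (SE 0.21, adjusted p = 2.39e-20) in OCI-AML3. All 8 myeloid markers examined, among them PTPRC, CD33, SPI1 and LYZ, were measured, and MPO was low, with group means of 0.708 to 3.39 CPM. Their summed level moved with the late groups, from 1080 to 1130 CPM in DMSO to 1620 to 1680 CPM at 24 h in Molm-14 and from 2110 to 2240 to 6360 to 6800 CPM in OCI-AML3. The markers did not move alike. From DMSO to 24 h the mean of LYZ in OCI-AML3 went from 574 to 3790 CPM, and that of PTPRC in Molm-14 from 222 to 503. CD33 in Molm-14 was at 32.2 and 33.5 CPM. The MPO mean was lower at 24 h, from 2.93 to 0.708 CPM in Molm-14 and from 2.67 to 1.92 in OCI-AML3. The part of the markers in the chaperone changes was not tested. Of the markers of other cell types only NKG7 (at most 24.6 CPM in a library) and KRT18 (at most 9.81 CPM) could be measured.

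The total chaperone message was smaller after treatment in both lines, and smallest in OCI-AML3 at 24 h. Summed over the 52 genes, it made up 2.34% ± 0.0286 (SD, n = 4) of a library's CPM in Molm-14 with DMSO, 1.91% ± 0.0256 (n = 4) at 2 h and 1.15% ± 0.023 (n = 4) at 24 h. The OCI-AML3 share was 2.35% ± 0.0246 (n = 4) with DMSO, 1.75% ± 0.0338 (n = 4) at 2 h and 0.804% ± 0.0054 (n = 3) at 24 h. These are shares of the mRNA of bulk cultures, in which fewer cells of a type and less RNA per cell cannot be told apart.

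The sums of the 4 compartments ended at different levels. In Molm-14 at 24 h the cytosolic sum stood at 43.1% ± 0.941 of its DMSO mean, CCT at 48.3% ± 1.19, the ER at 53.5% ± 1.41 and the mitochondrial sum at 37.0% ± 0.702 (SD, n = 4). In OCI-AML3 at 24 h the same sums stood at 23.4% ± 0.412, 29.8% ± 0.726, 43.0% ± 0.332 and 20.6% ± 0.324 (SD, n = 3). The order of the compartments was the same in both lines, with the ER sum highest and the mitochondrial sum lowest in every 24 h library. At 2 h the ER sum was again the highest in the mean, at 89.2% ± 0.882 in Molm-14 and 79.1% ± 1.15 in OCI-AML3 (SD, n = 4), where its libraries overlapped the mitochondrial ones. The lowest sum at 2 h was mitochondrial in Molm-14, at 75.3% ± 2.32, and cytosolic in OCI-AML3, at 62.8% ± 0.611. Some of these orders depended on the gene of highest CPM in each compartment (HSP90AB1, CCT5, P4HB and HSPD1). Without it the OCI-AML3 sums at 24 h were 34.1% of DMSO (CCT), 32.7% (ER), 23.5% (mitochondrial) and 22.8% (cytosolic), so that CCT was highest and the cytosolic sum lowest. At 2 h the OCI-AML3 ER sum was then 73.6%, below CCT at 75.4% and the mitochondrial sum at 81.3%, and in Molm-14 the cytosolic sum (75.0%) was below the mitochondrial one (77.7%).

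**Figure D1:**
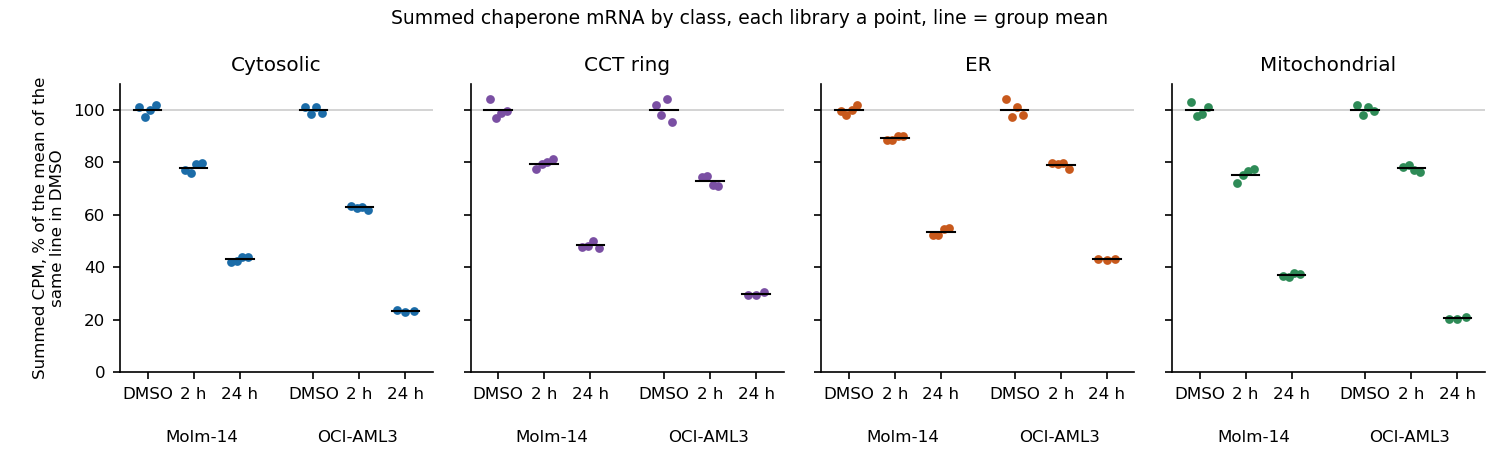
Summed CPM of the genes of each compartment in every library, in percent of the mean of the DMSO libraries of the same line; points are libraries and lines group means. No 24 h library overlaps a 2 h or DMSO library in any panel, and the OCI-AML3 libraries at 24 h end between 20.3% (mitochondrial) and 43.2% (ER).

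Counted gene by gene, hardly any chaperone passed both criteria at 2 h and most did at 24 h. In Molm-14 at 2 h HSPB1 rose (1 of 52, where 4.3% of all genes were called higher) and HSPA8 and XBP1 fell (2 of 52, where 2.98% of all genes were called lower). In OCI-AML3 at 2 h none rose (3.23% of all genes) and HSPA1B, HSPA8, FKBP4, SDF2L1 and XBP1 fell (5 of 52, against 3.35%). At 24 h none rose in Molm-14 (11.4% of all genes) or in OCI-AML3 (18.4%), while 30 of 52 fell in Molm-14 (6.57% of all genes) and 39 of 52 in OCI-AML3 (17.1%). By compartment, the genes that fell in Molm-14 at 24 h were 13 of 23 cytosolic, 5 of 8 CCT, 8 of 17 ER and 4 of 4 mitochondrial genes. In OCI-AML3 they were 17 of 23, 7 of 8, 11 of 17 and 4 of 4.

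The small changes at 2 h nevertheless leaned one way. By the adjusted p alone, 39 of 52 genes were lower in Molm-14 at 2 h (30.8% of all genes) and 46 of 52 in OCI-AML3 (30.8%), and at 24 h 48 (38.6%) and 50 (42.0%). Higher by the adjusted p alone were 4 genes in Molm-14 at 2 h (28.7% of all genes) and none in OCI-AML3 (31.4%), and at 24 h none in Molm-14 (37.7%) or OCI-AML3 (42.4%). Every treated library lay below every DMSO library for 39 genes in Molm-14 at 2 h (28.2% of all genes), 48 at 24 h (36.6%), and in OCI-AML3 for 45 at 2 h (27.3%) and 50 at 24 h (41.0%). The median change of the 52 genes was -0.33 and -1.09 at 2 and 24 h in Molm-14 and -0.48 and -1.78 in OCI-AML3, beside medians of 0.00, 0.00, 0.02 and 0.01 over all genes.

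**Figure D2:**
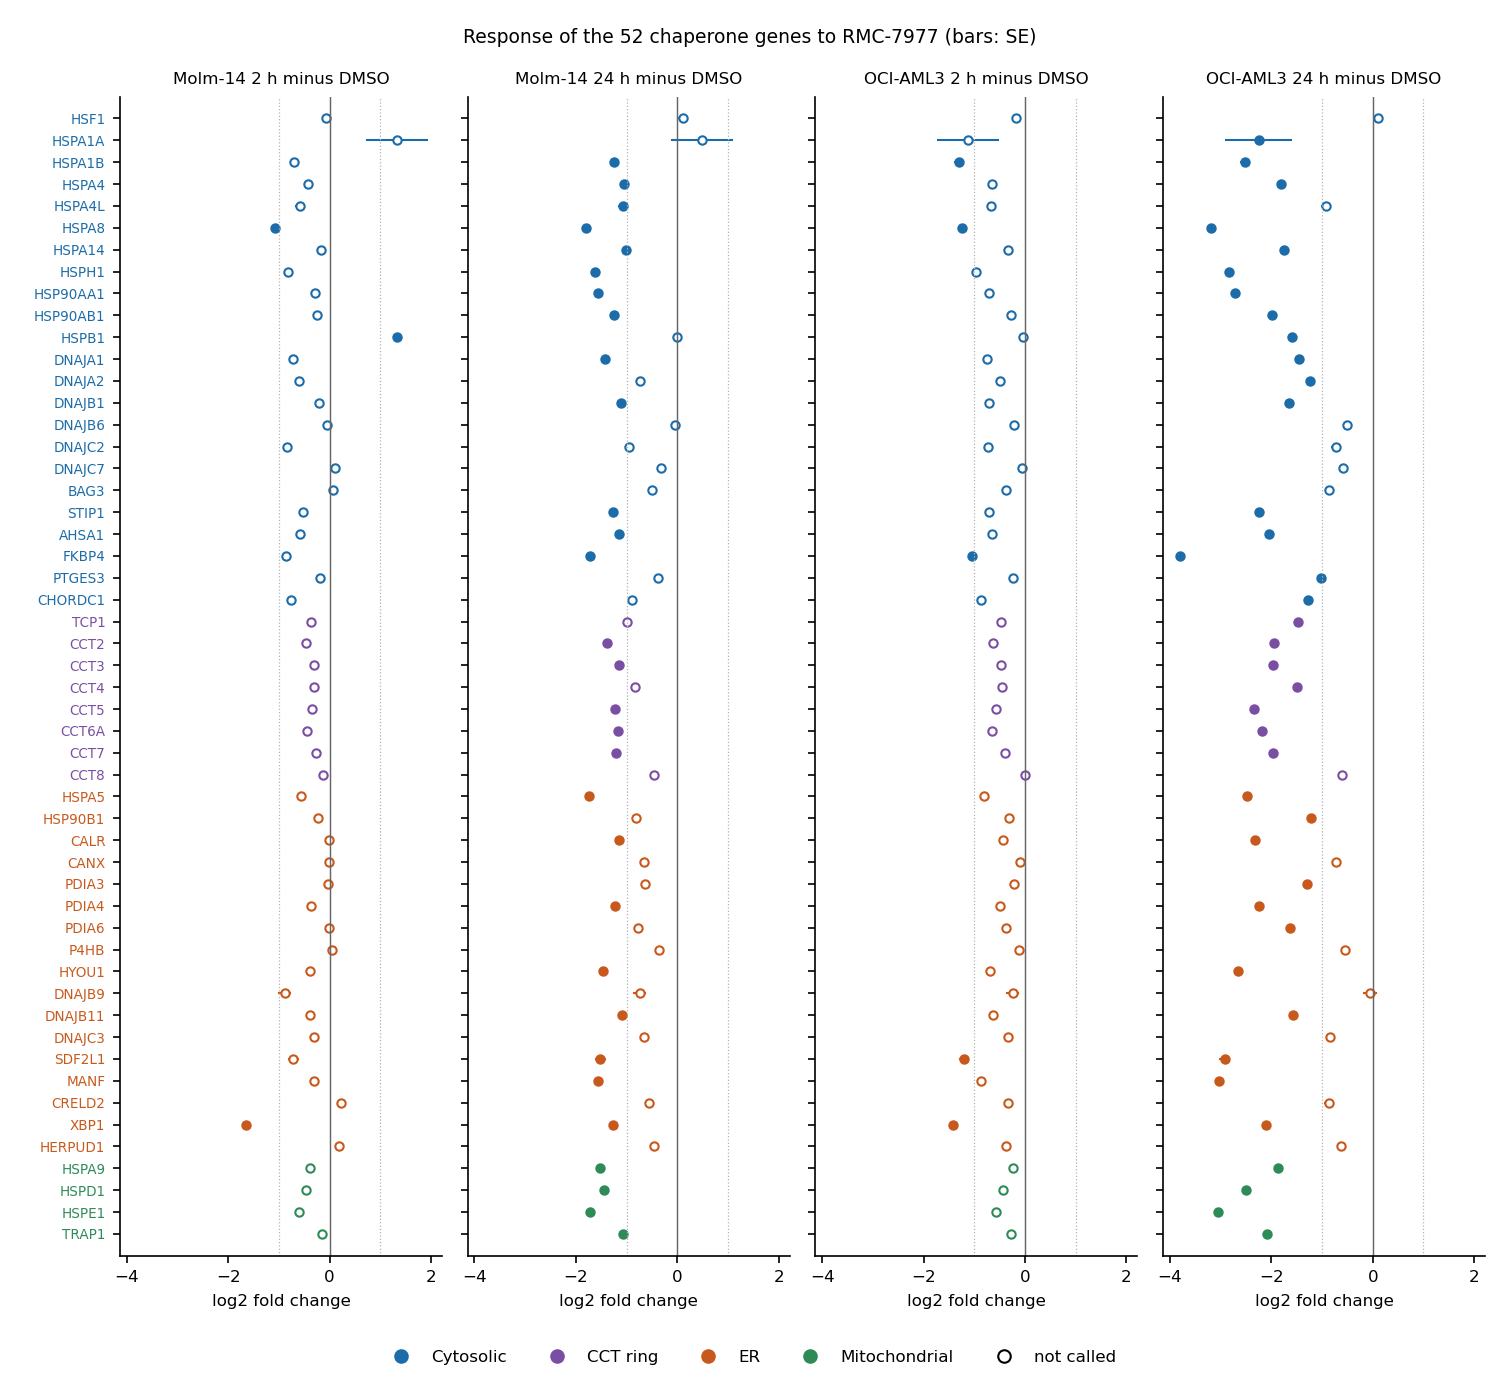
Log2 fold change against DMSO of the 52 genes (rows, colored by compartment) in 4 comparisons, with the SE as bars; filled points passed the adjusted p and the 2-fold threshold (dotted lines). Most points lie left of 0 at 2 h, and 30 of them in Molm-14 and 39 in OCI-AML3 are filled at 24 h.

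HSF1, the transcription factor of the heat shock response, was not among the genes that rose or fell. Its level in Molm-14 was 110, 123, 109 and 112 CPM in the DMSO libraries, 122, 101, 104 and 105 at 2 h and 127, 124, 123 and 113 at 24 h. In OCI-AML3 it was 193, 164, 179 and 160 CPM, then 150, 147, 146 and 174, then 200, 190 and 174. Treated and untreated libraries overlapped at both times in both lines. At 2 h the mean stood at 95.3% of DMSO in Molm-14 and at 88.7% in OCI-AML3, where only replicate 4 overlapped the DMSO libraries. At 24 h the change was 0.11 (SE 0.07, adjusted p = 0.147) in Molm-14 and 0.11 (SE 0.07, adjusted p = 0.138) in OCI-AML3.

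HSPA8, the constitutive cytosolic HSP70 that carries much of the everyday folding load, fell early and was lower still at 24 h. In Molm-14 it went from 2440, 2450, 2470 and 2460 CPM to 1150, 1140, 1180 and 1210 at 2 h and 671, 683, 752 and 719 at 24 h. The OCI-AML3 libraries had 2850, 2710, 2920 and 2690 CPM, followed by 1190, 1220, 1170 and 1110 and then 305, 301 and 309. The 3 groups of each line were well apart, and the OCI-AML3 libraries at 24 h were the lowest of all. On the log2 scale it fell to -1.07 (SE 0.04, adjusted p = 1.6e-20) and -1.80 (SE 0.04, adjusted p = 2.13e-26) in Molm-14, and to -1.25 (SE 0.04, adjusted p = 7.25e-22) and -3.19 (SE 0.04, adjusted p = 2.98e-32) in OCI-AML3. That left 28.8% and 10.9% of the DMSO mean at 24 h.

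HSPA1A and HSPA1B encode the stress-inducible HSP70 and are nearly identical in sequence, neighboring on chromosome 6 at 31815464-31817946 and 31827735-31830255, so the split of reads between them is uncertain. HSPA1B in Molm-14 went from 147, 158, 153 and 144 CPM to 97.8, 88.1, 89 and 93.9 at 2 h and 68.9, 63.2, 59.2 and 61.9 at 24 h. Its OCI-AML3 values were 168, 155, 139 and 139 CPM with DMSO, 57.9, 62.7, 59.1 and 61.3 at 2 h and 28.8, 26.2 and 23.3 at 24 h. None of the groups within a line overlapped, and HSPA1B fell to -1.25 (SE 0.06, adjusted p = 1.28e-17) in Molm-14 at 24 h, to -1.31 (SE 0.06, adjusted p = 1.99e-17) in OCI-AML3 at 2 h and to -2.52 (SE 0.07, adjusted p = 7.59e-25) at 24 h. HSPA1A was near the floor in Molm-14, with about 18 reads summed over the 4 DMSO libraries, of which 2 held none, while OCI-AML3 with DMSO had 223, 194, 221 and 192 CPM. In OCI-AML3 it stood at 95.8, 89.3, 91.5 and 102 CPM at 2 h, below every DMSO library, yet the change of -1.13 (SE 0.59, adjusted p = 0.106) did not pass. The SE of that fit is shared with Molm-14, and with OCI-AML3 fitted alone the adjusted p was 8.94e-12. At 24 h, with 47.3, 39.9 and 44.1 CPM, it fell to -2.25 (SE 0.64, adjusted p = 0.00348). The sum of both genes, which does not depend on the split, was 150.8 ± 5.93 CPM in Molm-14 with DMSO, 92.8 ± 4.63 at 2 h and 63.67 ± 4.23 at 24 h (SD, n = 4 each). The OCI-AML3 sum was 357.5 ± 25.0, then 154.8 ± 5.51 (n = 4 each) and at 24 h 69.87 ± 5.4 CPM (n = 3).

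HSPH1, a large HSP70 relative that acts as an exchange factor, changed alongside. Its level in Molm-14 was 453, 443, 458 and 450 CPM in DMSO, 248, 250, 254 and 264 at 2 h and 146, 144, 146 and 152 at 24 h. In OCI-AML3 it was 220, 227, 226 and 237, then 117, 118, 122 and 109, then 28.7, 35.5 and 31.6 CPM. The groups of each line did not overlap, and HSPH1 fell at 24 h to -1.62 (SE 0.05, adjusted p = 3.53e-23) and -2.84 (SE 0.05, adjusted p = 5.34e-29) in the 2 lines. The other exchange factors and relatives were smaller: HSPA4 fell to -1.04 and -1.81 at 24 h and HSPA14 to -1.02 and -1.75, while HSPA4L fell to -1.08 in Molm-14 and stood at -0.92 (SE 0.08, adjusted p = 7.75e-12) in OCI-AML3. The Molm-14 calls of these 3 genes sit close to the 2-fold line: with library totals in place of the deposited scaling they were at -0.94 (HSPA4), -0.92 (HSPA14) and -0.98 (HSPA4L). BAG3, an exchange factor linked to selective autophagy, was at -0.49 (SE 0.06, adjusted p = 2.53e-08) and -0.86 (SE 0.07, adjusted p = 6.63e-13) and passed in neither line.

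The J-domain proteins, which bring substrates to HSP70, were split. DNAJA1 fell at 24 h to -1.42 (SE 0.04, adjusted p = 3.55e-23) in Molm-14 and -1.46 (SE 0.04, adjusted p = 2.46e-23) in OCI-AML3. DNAJB1, the partner of inducible HSP70, fell to -1.11 and -1.64, and DNAJA2 fell in OCI-AML3 to -1.24 with -0.73 in Molm-14. DNAJB6, DNAJC2 and DNAJC7 passed in neither line, and their changes at 24 h ran from -0.96 (DNAJC2) to -0.04 (DNAJB6) in Molm-14 and from -0.73 (DNAJC2) to -0.51 (DNAJB6) in OCI-AML3.

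The 2 cytosolic HSP90 genes, whose products mature kinases and steroid receptors, did not reach a 2-fold change at 2 h and fell at 24 h. HSP90AA1, the inducible form, went in Molm-14 from 1820, 1620, 1790 and 1830 CPM to 1360, 1410, 1490 and 1490 at 2 h and 581, 582, 599 and 614 at 24 h. OCI-AML3 held 1800, 1880, 1920 and 1920 CPM, then 1170, 1200, 1160 and 1060, then 278, 277 and 307. The groups did not overlap, and the step from 2 to 24 h was the longer one in both lines. Against DMSO the change at 2 h was -0.29 (SE 0.05, adjusted p = 1.59e-06) in Molm-14 and -0.71 (SE 0.05, adjusted p = 2.61e-14) in OCI-AML3, and at 24 h it fell to -1.57 (SE 0.05, adjusted p = 3.29e-23) and -2.71 (SE 0.05, adjusted p = 7.24e-29).

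HSP90AB1, the constitutive form, had the highest CPM per kb of transcript of the 52 genes in Molm-14 with DMSO, 1370, while HSPA8 led in OCI-AML3, at 1210. Its CPM in Molm-14 was 3640, 3550, 3640 and 3790, then 3050, 3010, 3100 and 3180, then 1490, 1510, 1560 and 1620. In OCI-AML3 the libraries held 2530, 2420, 2360 and 2460, then 2040, 1940, 2050 and 2070, then 649, 602 and 600 CPM. All groups were apart, with 2 h close under DMSO and 24 h far below. It fell at 24 h to -1.24 (SE 0.04, adjusted p = 5.49e-23) and -1.99 (SE 0.04, adjusted p = 8.25e-28).

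Of the HSP90 co-chaperones, FKBP4 had the steepest fall of the 52 genes in OCI-AML3 at 24 h. FKBP4 (FKBP52) is a peptidyl-prolyl isomerase of steroid receptor complexes. In Molm-14 it went from 152, 154, 153 and 153 CPM to 85.8, 85.3, 84.9 and 79.9 at 2 h and 50.6, 45.8, 45.5 and 44.8 at 24 h. OCI-AML3 began at 350, 330, 342 and 329 CPM, had 161, 158, 167 and 166 at 2 h and ended at 25.4, 23.8 and 23.7. It thus started above Molm-14 and finished below it in every library. It fell to -1.71 (SE 0.04, adjusted p = 5.56e-25) in Molm-14 at 24 h, and in OCI-AML3 to -1.05 (SE 0.04, adjusted p = 3.33e-19) at 2 h, which was -0.98 with library totals, and to -3.80 (SE 0.04, adjusted p = 4.47e-33) at 24 h. STIP1 (HOP), which links HSP70 to HSP90, fell to -1.27 and -2.24 at 24 h. AHSA1, which speeds the HSP90 ATPase, fell to -1.16 and -2.04. PTGES3 (p23), which stabilizes closed HSP90, fell to -1.02 in OCI-AML3, at -0.85 with library totals, and was at -0.37 in Molm-14, a difference of -0.65 (SE 0.05, adjusted p = 1.44e-11). CHORDC1 fell to -1.28 in OCI-AML3 and was at -0.90 in Molm-14, a difference of -0.38 (SE 0.08, adjusted p = 0.000144).

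HSPB1 (HSP27), a small heat shock protein that holds unfolded proteins without ATP, was the 1 gene of the 52 that rose. In Molm-14 it went from 348, 339, 337 and 344 CPM up to 907, 826, 860 and 855 at 2 h and back to 356, 338, 338 and 326 at 24 h. In OCI-AML3 it was 137, 125, 140 and 118 CPM in DMSO, 123, 119, 118 and 144 at 2 h and 47.8, 41.1 and 41.3 at 24 h. Only the Molm-14 libraries at 2 h stood above their DMSO libraries, and only the OCI-AML3 libraries at 24 h stood below theirs. It rose by 1.33 (SE 0.06, adjusted p = 1.39e-18) in Molm-14 at 2 h, was at -0.01 (SE 0.06, adjusted p = 0.884) at 24 h, and in OCI-AML3 was at -0.05 (SE 0.06, adjusted p = 0.484) at 2 h and fell to -1.58 (SE 0.06, adjusted p = 1.6e-20) at 24 h. The difference between the responses of the lines was -1.38 (SE 0.08, adjusted p = 1.57e-14) at 2 h and -1.57 (SE 0.08, adjusted p = 3.82e-16) at 24 h.

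**Figure D3:**
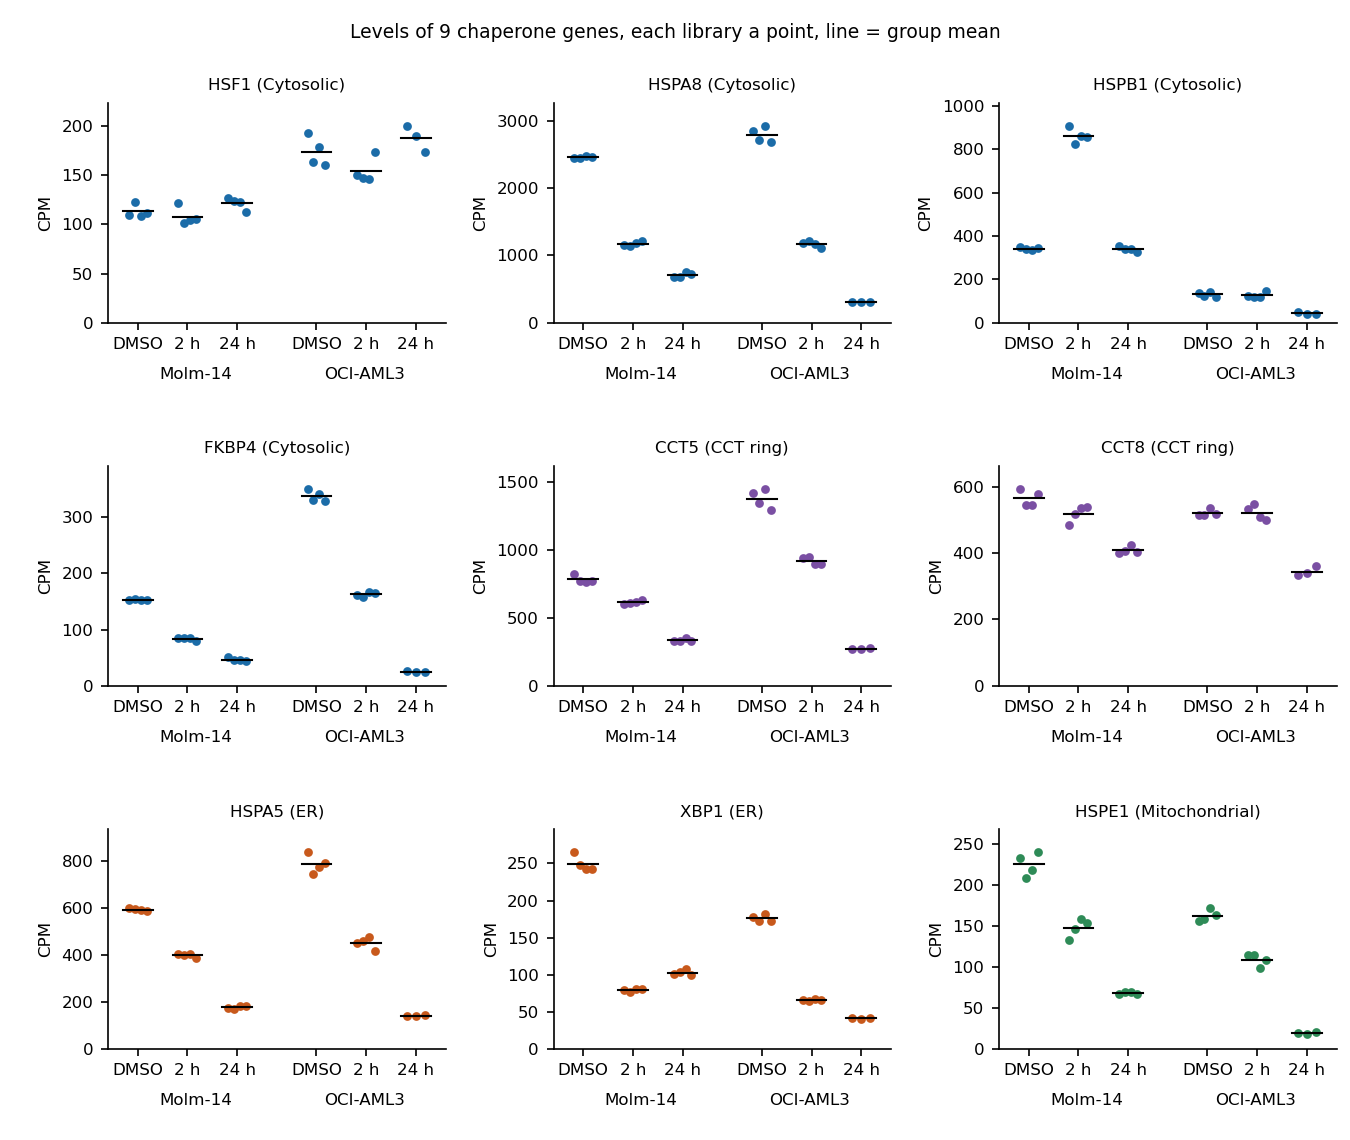
CPM of 9 chaperone genes in every library (points) with group means (lines), axes from 0. HSF1 stays near its DMSO level, HSPA8, FKBP4, CCT5, HSPA5 and HSPE1 step down at 2 and 24 h, HSPB1 peaks at 2 h in Molm-14, and XBP1 in Molm-14 is higher at 24 h than at 2 h.

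Among the CCT subunits, which form the double ring that folds actin and tubulin, 7 of 8 fell in OCI-AML3 at 24 h and CCT8 stood aside. CCT2 in Molm-14 went from 684, 632, 668 and 653 CPM to 461, 491, 481 and 482 at 2 h and 240, 257, 263 and 247 at 24 h. In the other line it stood at 370, 348, 375 and 338 CPM with DMSO, 234, 240, 234 and 220 at 2 h and 90.7, 90.3 and 97.2 at 24 h. The groups did not overlap in either line, and at 24 h CCT2 fell to -1.39 (SE 0.04, adjusted p = 5.98e-23) and -1.95 (SE 0.04, adjusted p = 2.16e-26).

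CCT5 was the subunit that fell furthest in OCI-AML3. Its Molm-14 libraries held 828, 772, 767 and 770 CPM in DMSO, 604, 610, 616 and 633 at 2 h and 329, 329, 349 and 329 at 24 h. The OCI-AML3 libraries held 1420, 1350, 1450 and 1300, then 946, 949, 900 and 896, then 270, 270 and 280 CPM. It was higher in OCI-AML3 than in Molm-14 before treatment and lower after 24 h, in every library. It fell at 24 h to -1.23 (SE 0.04, adjusted p = 1.29e-22) and -2.33 (SE 0.04, adjusted p = 3.45e-29).

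CCT3, CCT6A and CCT7 took a similar course. CCT3 stood at 711, 680, 699 and 688 CPM in Molm-14 with DMSO, 562, 555, 559 and 579 at 2 h and 311, 311, 331 and 305 at 24 h. In OCI-AML3 it stood at 652, 607, 645 and 571 CPM with DMSO, 451, 451, 438 and 435 at 2 h and 158, 152 and 163 at 24 h. Its 24 h libraries in OCI-AML3 were the lowest of the 6 groups. CCT6A stood at 547, 505, 514 and 515 CPM in Molm-14 with DMSO, 353, 382, 398 and 393 at 2 h and 234, 227, 235 and 225 at 24 h. The OCI-AML3 values were 402, 414, 437 and 418 CPM with DMSO, 270, 276, 261 and 258 at 2 h and 92.9, 89.8 and 94.1 at 24 h. The same held for CCT6A. CCT7 stood at 518, 495, 505 and 505 CPM in Molm-14 with DMSO, 426, 412, 405 and 425 at 2 h and 224, 218, 218 and 214 at 24 h. The OCI-AML3 values were 586, 531, 570 and 508 CPM with DMSO, 421, 417, 401 and 417 at 2 h and 141, 139 and 140 at 24 h. For each of the 3 the groups within a line were apart and in the order DMSO, 2 h, 24 h. At 24 h CCT3 fell to -1.14 and -1.97, CCT6A to -1.17 and -2.18, and CCT7 to -1.21 and -1.97 in Molm-14 and OCI-AML3, with SEs of 0.04. TCP1, whose -0.998 falls short of the threshold before rounding, and CCT4, at -0.83, did not pass in Molm-14 and fell to -1.48 and -1.497 in OCI-AML3.

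CCT8, chosen for mention after its values were seen, was the exception. It stood at 514, 514, 537 and 518 CPM in OCI-AML3 with DMSO, 532, 547, 508 and 499 at 2 h and 334, 339 and 360 at 24 h. The DMSO and 2 h libraries overlapped and the 24 h libraries lay below both. Its change was -0.47 (SE 0.04, adjusted p = 9.72e-12) in Molm-14 and -0.60 (SE 0.04, adjusted p = 1.2e-13) in OCI-AML3 at 24 h. In CPM per kb of transcript, the highest subunit stood 2.26-fold above the lowest in Molm-14 with DMSO and 2.52-fold at 24 h, and in OCI-AML3 2.93-fold with DMSO and 5.07-fold at 24 h. In that last group CCT8 was highest, at 172 CPM per kb, and CCT6A lowest, at 33.9, while the median of the 8 subunits was 65.3.

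**Figure D4:**
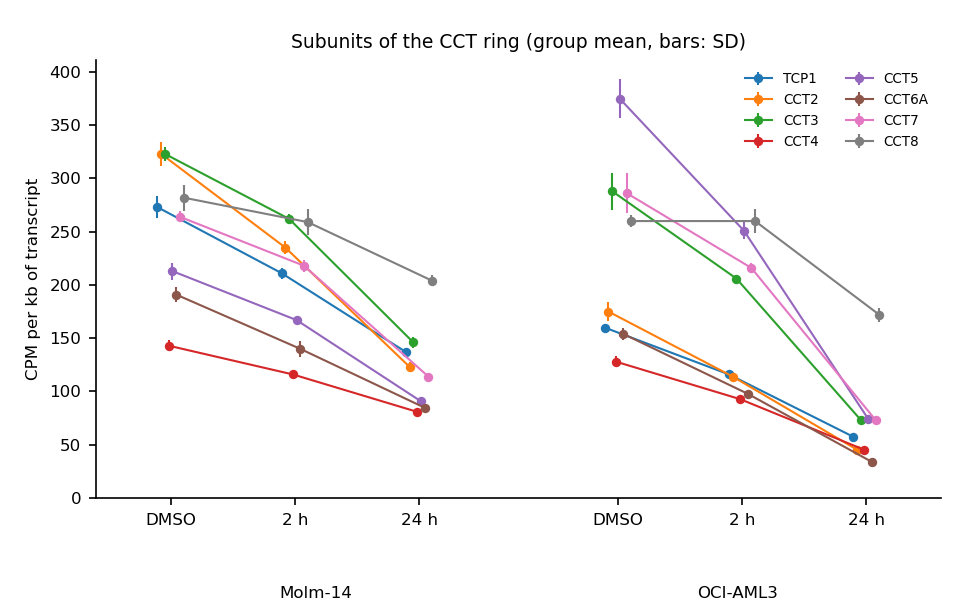
CPM per kb of transcript of the 8 CCT subunits by line and group, as means with the SD over libraries as bars. The subunits are lowest at 24 h, and CCT8 at 24 h in OCI-AML3 stands at 172 CPM per kb, above the other 7.

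In the ER 11 of 17 genes fell in OCI-AML3 at 24 h, BiP and its partners among them, while calnexin and P4HB changed by less than 2-fold. HSPA5 (BiP), the HSP70 of the ER, went in Molm-14 from 602, 596, 591 and 586 CPM to 404, 399, 406 and 388 at 2 h and 172, 171, 182 and 183 at 24 h. Its OCI-AML3 libraries held 838, 744, 777 and 794 CPM with DMSO, 453, 460, 477 and 418 at 2 h and 141, 139 and 146 at 24 h. The groups were apart in both lines, in the order DMSO, 2 h, 24 h. At 24 h it fell to -1.74 (SE 0.04, adjusted p = 1.56e-25) in Molm-14 and -2.47 (SE 0.04, adjusted p = 4.13e-29) in OCI-AML3.

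HSP90B1 (GRP94), the HSP90 of the ER, moved less. Molm-14 had 903, 830, 910 and 923 CPM in DMSO, 720, 764, 776 and 795 at 2 h and 489, 503, 506 and 527 at 24 h. OCI-AML3 had 805, 763, 761 and 796, then 645, 635, 639 and 587, then 324, 334 and 345 CPM. The groups did not overlap, but the change at 24 h reached the 2-fold threshold only in OCI-AML3, with -0.82 (SE 0.04, adjusted p = 1.86e-17) in Molm-14 and -1.22 (SE 0.04, adjusted p = 2.02e-21) in OCI-AML3; the difference between the lines was -0.41 (SE 0.06, adjusted p = 7.46e-07).

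HYOU1 (GRP170), the exchange factor of BiP, fell with it. Its Molm-14 libraries went from 138, 146, 145 and 148 CPM to 114, 110, 106 and 110 at 2 h and 48.7, 51, 56 and 53 at 24 h. Its OCI-AML3 libraries went from 231, 213, 209 and 212 CPM to 135, 133, 140 and 129 at 2 h and 36.3, 33.6 and 33.7 at 24 h. SDF2L1, a lumenal partner of the J-protein DNAJB11, had 59.1, 57.6, 55.7 and 52.7 CPM in the DMSO libraries of Molm-14, 39.3, 32, 35.5 and 31 at 2 h and 20.7, 20.1, 20.2 and 17.9 at 24 h. For OCI-AML3 the DMSO values were 67.4, 64.7, 72.7 and 54.5 CPM, with 26.6, 26.9, 25.9 and 32.5 at 2 h and 8.67, 8.47 and 8.41 at 24 h. No 24 h library of these genes reached a 2 h library of its line. MANF, a secreted ER stress protein that binds BiP, had 51.7, 45.7, 47 and 49.8 CPM in the DMSO libraries of Molm-14, 35.7, 41.3, 40.6 and 39.7 at 2 h and 16.1, 16.6, 15.9 and 16.8 at 24 h. The OCI-AML3 values were 99, 94.7, 107 and 91.2 CPM with DMSO, 57.1, 51.7, 53.3 and 52.8 at 2 h and 11.3, 12.3 and 12.2 at 24 h. For all 3 genes the groups within a line were apart, and the OCI-AML3 libraries, which at the start were above Molm-14 for HYOU1 and MANF, ended below every Molm-14 library at 24 h. In OCI-AML3 at 24 h HYOU1 fell to -2.65 (SE 0.05, adjusted p = 1.31e-28), SDF2L1 to -2.92 (SE 0.09, adjusted p = 1.6e-23) and MANF to -3.03 (SE 0.06, adjusted p = 1.18e-27). In Molm-14 they fell to -1.47, -1.51 and -1.57. SDF2L1 fell to -1.21 (SE 0.08, adjusted p = 7.37e-14) already at 2 h in OCI-AML3, and DNAJB11 fell to -1.10 and -1.57 at 24 h.

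The lectin calreticulin (CALR) fell to -1.16 (SE 0.04, adjusted p = 7.62e-22) and -2.32 (SE 0.04, adjusted p = 4.95e-29) at 24 h, whereas calnexin (CANX), its membrane-bound relative, was at -0.67 (SE 0.05, adjusted p = 6.09e-14) and -0.73 (SE 0.05, adjusted p = 2.44e-14). Among the protein disulfide isomerases, which form and shuffle disulfide bonds, PDIA4 fell to -1.23 and -2.25, and PDIA3 and PDIA6 fell in OCI-AML3 to -1.30 and -1.63 and were at -0.64 and -0.78 in Molm-14. The differences between the lines were -0.66 (SE 0.06, adjusted p = 4.5e-11) and -0.85 (SE 0.06, adjusted p = 3.87e-14), under 2-fold. P4HB, also a subunit of prolyl hydroxylase, was at -0.37 and -0.55 and passed in neither line. It kept 68.1% of its DMSO mean in OCI-AML3 at 24 h, and was by then the highest of the 52 genes there in CPM per kb, at 564. The J-proteins DNAJB9 and DNAJC3, and HERPUD1 and CRELD2, known targets of the unfolded protein response, passed in neither line. DNAJB9, picked after its values were seen, was low, at 7.1, 6.53, 8.14 and 7.4 CPM in OCI-AML3 with DMSO and 6.62, 7.33 and 7.07 at 24 h, and its libraries overlapped there.

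XBP1, the transcription factor whose mRNA is spliced by IRE1 in the unfolded protein response, dropped early and partly came back in one line. In Molm-14 it went from 265, 248, 242 and 243 CPM to 78.8, 76.3, 80.3 and 81.1 at 2 h and 101, 103, 108 and 99.6 at 24 h. In OCI-AML3 the values were 178, 172, 182 and 172 CPM, then 65.8, 64.6, 67.8 and 66, then 41.3, 40 and 42. Every Molm-14 library at 24 h was above every one at 2 h, the only gene of the 52 for which that held (30.6% of all genes), while in OCI-AML3 the 24 h libraries were the lowest. XBP1 fell at 2 h to -1.66 (SE 0.04, adjusted p = 1.18e-24) in Molm-14 and -1.41 (SE 0.04, adjusted p = 7.45e-23) in OCI-AML3, the deepest change of the 52 genes at that time in both. From 2 to 24 h it was at 0.38 (SE 0.04, adjusted p = 7.02e-10) in Molm-14 and -0.69 (SE 0.04, adjusted p = 3.65e-15) in OCI-AML3, both under 2-fold. Gene-level values do not separate the spliced from the unspliced form.

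All 4 mitochondrial genes fell at 24 h in both lines. HSPA9 (mortalin), the mitochondrial HSP70, went in Molm-14 from 758, 722, 737 and 752 CPM to 549, 564, 574 and 574 at 2 h and 252, 249, 263 and 265 at 24 h. OCI-AML3 had 462, 456, 451 and 471 CPM with DMSO, 391, 396, 401 and 384 at 2 h and 119, 124 and 135 at 24 h. The groups did not overlap, and it fell to -1.53 (SE 0.04, adjusted p = 3.39e-25) and -1.87 (SE 0.04, adjusted p = 3.08e-27) at 24 h.

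HSPD1 (HSP60) and HSPE1 (HSP10) form the folding chamber and its lid. HSPD1 had 1290, 1210, 1240 and 1280 CPM in the DMSO libraries of Molm-14, 852, 926, 931 and 949 at 2 h and 458, 448, 476 and 472 at 24 h. OCI-AML3 began at 967, 926, 954 and 961 CPM and had 722, 719, 702 and 680 at 2 h and 165, 169 and 172 at 24 h. The OCI-AML3 libraries at 24 h were the lowest of the 6 groups. HSPE1 had 233, 209, 219 and 240 CPM in the DMSO libraries of Molm-14, 133, 146, 158 and 154 at 2 h and 67, 68.9, 69.4 and 66.4 at 24 h. Its DMSO values in OCI-AML3 were 156, 158, 172 and 163 CPM, with 115, 114, 98.6 and 108 at 2 h and 19.7, 18.6 and 20.6 at 24 h. For both genes the 3 groups were apart in each line, and Molm-14 was above OCI-AML3 at each time. At 24 h HSPD1 fell to -1.44 (SE 0.04, adjusted p = 1.3e-24) and -2.50 (SE 0.04, adjusted p = 2.84e-30), and HSPE1 to -1.73 (SE 0.05, adjusted p = 2.44e-22) and -3.05 (SE 0.06, adjusted p = 3.5e-28), in Molm-14 and OCI-AML3.

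TRAP1, the mitochondrial HSP90, was the mitochondrial gene nearest to the threshold in Molm-14. Its libraries held 334, 337, 305 and 303 CPM in Molm-14 with DMSO, 299, 273, 287 and 289 at 2 h and 155, 156, 154 and 146 at 24 h. In OCI-AML3 they held 328, 305, 315 and 277, then 244, 252, 248 and 268, then 78.6, 72 and 65.6 CPM. The 24 h libraries lay far below the others in both lines. It fell to -1.06 (SE 0.05, adjusted p = 1.28e-17) in Molm-14, which was -0.96 with library totals, and to -2.09 (SE 0.06, adjusted p = 1.51e-24) in OCI-AML3.

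The step from 2 to 24 h was tested within each line, between libraries that are not shared. In Molm-14 8 of 52 genes fell by at least 2-fold over that step (3.38% of all genes) and none rose (7.25%), and in OCI-AML3 30 fell (10.9%) and none rose (11.6%). All 4 mitochondrial genes were among the OCI-AML3 genes, with HSPE1 at -2.47 and HSPD1 at -2.06. By the adjusted p alone 46 genes were lower in Molm-14 over that step (34.8% of all genes) and 2 higher (33.4%), and in OCI-AML3 48 were lower (39.1%) and 1 higher (38.5%).

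The response of OCI-AML3 was then set against that of Molm-14, by the difference of the 2 changes against DMSO. At 2 h it passed for HSPA1A and HSPB1, both lower in OCI-AML3 (2 of 52, where 3.52% of all genes were called lower), and for none in the other direction (2.12%). The HSPA1A difference of -2.47 rests on a few reads in Molm-14. At 24 h it passed for 17 genes, all with the lower change in OCI-AML3 (9.75% of all genes), and for none with the higher change (8.09%). They were 7 cytosolic, 2 CCT, 5 ER and 3 mitochondrial genes. The cytosolic ones include HSPA1A, at -2.73, which was near the floor in Molm-14 and had little room to fall there. FKBP4 differed by -2.09 (SE 0.06, adjusted p = 2.49e-22), HSPA8 by -1.39 (SE 0.06, adjusted p = 4.39e-19), MANF by -1.46 (SE 0.08, adjusted p = 1.91e-15) and HSPE1 by -1.32 (SE 0.08, adjusted p = 7.62e-15). CCT6A, at -1.004, and PDIA4, HSPD1 and TRAP1, at -1.02, -1.06 and -1.03, were at or under the 2-fold line with library totals (-0.93 for CCT6A, -0.95 for PDIA4, -0.98 for HSPD1 and -0.95 for TRAP1). CCT6A was also under it with median-of-ratios scaling (-0.998) and with a pseudocount of 1 CPM (-0.9965). With each library left out in turn, CCT6A, PDIA4 and TRAP1 lost the call in some fits, and the count of 17 ran from 15 to 18. Of the 52 genes 48 had the lower change in OCI-AML3 at 24 h, with a median difference of -0.73 and a correlation of 0.746 between the lines' changes over the 52 genes, given as a description since genes share libraries. By the adjusted p alone the change was lower in OCI-AML3 for 28 genes at 2 h (19.5% of all genes) and 45 at 24 h (36.8%), and higher for 3 (19.2%) and 2 (28.6%). DNAJB9 leaned the other way, at 0.69 (SE 0.16, adjusted p = 0.000401), under 2-fold.

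**Figure D5:**
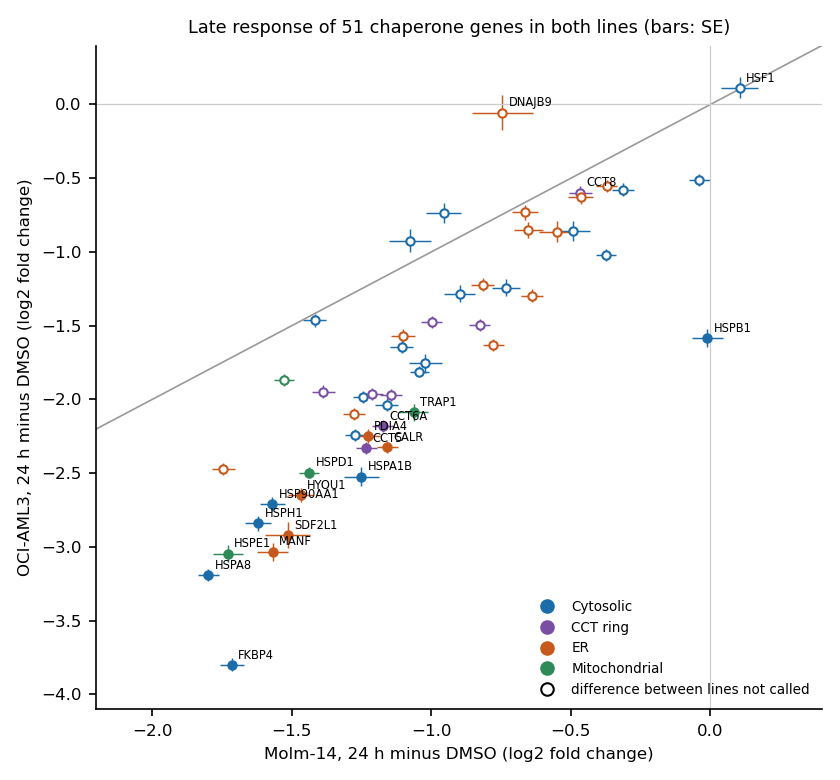
Log2 fold change at 24 h in OCI-AML3 (vertical) against Molm-14 (horizontal) for 51 of the 52 genes, with SEs as bars and the line of equal change; HSPA1A, near 0 reads in Molm-14, is left out. Filled points, such as FKBP4 and HSPA8, passed the test of the difference between the lines and all lie below the line.

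Before treatment the lines differed by 2-fold in few chaperones. OCI-AML3 was higher in HSPA1A, P4HB, PDIA4, CRELD2, FKBP4 and MANF (6 of 52, where 17.9% of all genes were called higher) and lower in HSPB1 (1 of 52, where 12.2% were called lower). P4HB was higher by 1.63 (SE 0.04, adjusted p = 4.03e-26), FKBP4 by 1.14 (SE 0.04, adjusted p = 3.44e-21) and MANF by 1.01 (SE 0.06, adjusted p = 1.96e-16), and HSPB1 was at -1.40 (SE 0.06, adjusted p = 5.95e-20). Of these 6 genes, HSPA1A, FKBP4, PDIA4 and MANF were also among those with the larger fall in OCI-AML3 at 24 h. Both comparisons use the same DMSO libraries, and HSPA1A, near the floor in Molm-14, had little room to fall there. MANF was under 2-fold with median-of-ratios scaling (0.94), with a pseudocount of 1 CPM (0.998), and without Molm-14 DMSO replicate 2 (0.98) or 3 (0.996) or OCI-AML3 DMSO replicate 3 (0.97). By the adjusted p alone 20 genes were higher in OCI-AML3 with DMSO (45.0% of all genes) and 23 lower (37.4%).

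Genes with and without an upstream element were set side by side in OCI-AML3 at 24 h, where 17.1% of all genes were called lower, with no test. Of the 10 ER genes with either ER stress element 7 fell, with a median of -1.87, and of the 6 with a window and no element 3 fell, with a median of -1.21. Of the 5 cytosolic genes with a heat shock element 4 fell, with a median of -1.99, and of the 15 without 11 fell, with a median of -1.58. The gaps were smaller in the other comparisons with DMSO, and in Molm-14 at 2 h the genes without an element had the lower medians. With and without an element, the ER medians there were -0.12 and -0.34, and the cytosolic ones -0.29 and -0.53. In Molm-14 at 24 h they were -0.99 and -0.92 (ER) and -1.24 and -1.04 (cytosolic). In OCI-AML3 at 2 h they were -0.41 and -0.42 (ER) and -0.71 and -0.66 (cytosolic).

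Further chaperone and folding genes that are not among the 52 were taken from a list of the same compartments, and here genes went both ways. Over all genes at 24 h, 6.57% were called lower and 11.4% higher in Molm-14, and 17.1% lower and 18.4% higher in OCI-AML3. Of 34 further cytosolic genes 4 fell in Molm-14 (11.8%) and 14 in OCI-AML3 (41.2%). Among them were DNAJC9, a J-domain protein that binds histones, to -1.18 and -2.08, NUDC, an HSP90 co-chaperone, to -1.18 and -2.03, and PFDN2, a prefoldin subunit that hands chains to CCT, to -1.27 and -1.72. In each line 3 of the 34 rose (8.82%), namely HSPA6, HSPA7 and DNAJB2. The HSP70 gene HSPA6 rose by 5.07 and 3.08, HSPA7, annotated as a pseudogene, by 6.13 and 4.30, and DNAJB2, a J-domain protein that binds ubiquitylated clients, by 2.64 and 1.42.

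In the ER 4 of 40 further genes fell in Molm-14 and 10 of 40 (25%) in OCI-AML3, among them the disulfide isomerase TXNDC5 to -1.40 and -2.08. None rose in Molm-14, and 3 of 40 (7.5%) rose in OCI-AML3. These were ERN1, which encodes the XBP1-splicing enzyme IRE1, by 1.70, ERO1B by 2.08 and OS9 by 1.23, of which ERN1 and ERO1B were named after their values were seen. In mitochondria 6 of 21 (28.6%) fell in Molm-14 and 11 of 21 (52.4%) in OCI-AML3, and none rose. Among them were TIMM50, the receptor subunit of the inner membrane translocase that receives imported chains, to -1.43 and -1.99, the protease LONP1 to -1.54 and -1.76, and ATF5, a factor of the mitochondrial stress response, to -1.99 and -1.64. The medians of these lists at 24 h were -0.29 (cytosolic), -0.29 (ER) and -0.80 (mitochondrial) in Molm-14, and -0.79, -0.54 and -1.15 in OCI-AML3.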

How the data were processed

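RNA-seq of poly(A) RNA was deposited by the authors as 1 table of log2 CPM values for 13033 genes, and 23 of 24 libraries have a column; the other is not analysed here. The submitters' processing notes name Trimmomatic 0.36, STAR 2.7.8a, RSEM 1.3.3, edgeR 3.24.3, limma 3.38.3 and MultiQC 1.28 with hg38 (GRCh38). For the strand setting, the filter on low counts and the prior count, values were not given in the sources used here. Values of -3.26 (0.105 CPM) are the table's floor. Depth was estimated from the spacing of low values, of which 67.6 to 82.8% per library lay within 0.05 of a whole read. The table was fitted as deposited with limma 3.58.1 in R 4.3.3, with 6 group means, a trended and robust prior and Benjamini-Hochberg adjustment over all genes, after the script was tested on simulated data. CPM were summed by compartment. Lengths and coordinates come from GENCODE 29, promoter windows from RefSeq.

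The members and lists were chosen with earlier results of these data known. Values per library are given for 23 genes: those called against DMSO and among the 4 largest changes of their compartment in a comparison, and 11 core genes (HSF1, HSPA8, HSP90AA1, HSP90AB1, HSPA5, HSP90B1, XBP1, HSPD1, HSPE1, HSPA9 and TRAP1). HSPA1A, shown with its copy HSPA1B, CCT8 and DNAJB9 were added after their values were seen. For the further lists, genes with the smallest adjusted p among those called are named. Alternatives were another pseudocount, filter, scaling, prior and fold threshold, each line alone, a replicate block, and each library left out.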

Additional observations from a re-analysis of the deposited data

Results flagged for a closer look

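In 4 groups of 4 libraries, a single library stood apart from the other 3 by more than Dixon's 95% critical value for the gap over the range of log2 CPM. HSF1 in OCI-AML3 at 2 h was 174 CPM in replicate 4 with the next at 150 (ratio 0.843). FKBP4 in Molm-14 at 2 h was 79.9 CPM in replicate 4 with the next at 84.9 (0.854). CCT5 was 828 CPM in Molm-14 DMSO replicate 1 with the next at 772 (0.913), and 349 CPM in Molm-14 24 h replicate 3 with the next at 329 (0.959). In all, 135 groups were looked at, and chance flags about 1 in 20.

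The responses of the lines differed, by the test of the difference itself (limma, adjusted over all genes), for 2 genes at 2 h and 17 at 24 h, in each case with the lower change in OCI-AML3. At 2 h the differences were -2.47 for HSPA1A (adjusted p = 0.0268) and -1.38 for HSPB1 (adjusted p = 1.57e-14). The HSPA1A differences at both times rest on a few reads in Molm-14. At 24 h the cytosolic differences were -2.73 for HSPA1A, -1.27 for HSPA1B, -1.39 for HSPA8, -1.22 for HSPH1, -1.14 for HSP90AA1, -1.57 for HSPB1 and -2.09 for FKBP4. Those of the CCT ring were -1.10 for CCT5 and -1.004 for CCT6A. Those of the ER were -1.17 for CALR, -1.02 for PDIA4, -1.18 for HYOU1, -1.40 for SDF2L1 and -1.46 for MANF, and the mitochondrial ones -1.06 for HSPD1, -1.32 for HSPE1 and -1.03 for TRAP1. DUSP6 also differed at 24 h, by -5.51 (adjusted p = 4.97e-16), and its part in these differences was not tested.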

How the results depend on the processing

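No direction of a called gene or of a count turned under any of 30 alternatives. Of 468 results (52 genes in 9 comparisons), 26 changed their call in at least 1 of them, in 19 genes, 9 of them against DMSO. HSPA1A in Molm-14 is the weakest value: without DMSO replicate 4 it would be called higher at 2 h (2.06) and at 24 h (1.21), and the count of genes called higher ran from 1 to 2 at 2 h and from 0 to 1 at 24 h over the leave-one-out fits. It was also called higher at 2 h without the robust and trended prior and with the replicate block, which gave a count of 2 in each case. The difference of the lines at 2 h ran from 1 to 2 genes called lower, losing HSPA1A without Molm-14 DMSO replicate 2 (-2.09) or 3 (-2.09) or Molm-14 2 h replicate 4 (-2.21). Genes lower in OCI-AML3 with DMSO ran from 1 to 2, with HSPH1 called without OCI-AML3 DMSO replicate 4 (-1.01), and numbered 2 with median-of-ratios scaling.

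Little pairing by replicate number was seen: deviations of same-numbered libraries had a median correlation of 0.00631, and those of different numbers -0.00573. Over 0.1 were 5 of 55 same-numbered and 10 of 165 other pairs, and 8 of 23 libraries correlated best with their own number. Whether same-numbered libraries were prepared together cannot be told from these values. The replicate block gave 31 called genes for the OCI-AML3 step from 2 to 24 h (30 without) and 16 for the difference of the lines at 24 h (17 without), and left the other counts as they were except the 2 named above.

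With the adjusted p alone the genes called lower were 39 and 48 in Molm-14 at 2 and 24 h, 46 in OCI-AML3 at 2 h, 46 and 48 for the steps from 2 to 24 h, 28 and 45 for the differences of the lines at 2 and 24 h, and 23 in DMSO; those called higher were 4 in Molm-14 at 2 h, 2 and 1 for the steps, 3 and 2 for the differences, and 20 in DMSO. With a 1.5-fold threshold those called lower were 13 and 21 at 2 h in Molm-14 and OCI-AML3, 34 for the Molm-14 step, 30 for the difference at 24 h and 6 in DMSO, and 1 gene was called higher for each difference of the lines.

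Library totals shifted the median of all genes by 0.17 in OCI-AML3 at 24 h and by 0.10 for its step from 2 h. They put the cytosolic sums at 46.1% of DMSO (Molm-14, 24 h), 65.9% and 26.3% (OCI-AML3, 2 and 24 h), the CCT sums at 51.7%, 76.5% and 33.6%, the ER sums at 90.7% (Molm-14, 2 h), 57.3%, 83.0% and 48.4%, and the mitochondrial sums at 39.7%, 81.5% and 23.2%. Without the member of highest CPM (HSP90AB1, CCT5, P4HB or HSPD1) the cytosolic sums were 75.0% (Molm-14, 2 h), 56.8% and 22.8% (OCI-AML3, 2 and 24 h), the CCT sums 75.4% and 34.1% in OCI-AML3, the ER sums 87.4% and 50.2% in Molm-14 and 73.6% and 32.7% in OCI-AML3, and the mitochondrial sums 77.7% (Molm-14, 2 h), 81.3% and 23.5% (OCI-AML3). The causes of these changes were not tested. Depth limits HSPA1A in Molm-14, and the n of 3 or 4 limits every group.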

Other observations

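The HSP70 genes HSPA6 and HSPA7, which are outside the 52, lie near Fc gamma receptor genes of which some also rose at 24 h. HSPA6, a strictly stress-inducible HSP70, was at 1.83, 1.96, 1.5 and 2.09 CPM in Molm-14 with DMSO and 66.2, 66.7, 61.8 and 52.4 at 24 h, and at 11.1, 10.4, 10.9 and 10.2 and 88.8, 91.5 and 90.7 in OCI-AML3. It rose by 5.07 (SE 0.11) and 3.08 (SE 0.12) on the log2 scale. HSPA7, annotated as a pseudogene and close to HSPA6 in sequence, so that reads may be shared between them, rose by 6.13 and 4.30. In GENCODE 29 (GRCh38) HSPA6 lies at chr1:161524540-161526910 and HSPA7 at chr1:161606291-161608217, between the genes of the Fc gamma receptors FCGR2A (chr1:161505430-161524013), FCGR2C (chr1:161581339-161605662) and FCGR2B (chr1:161663147-161678654). FCGR2A rose by 2.90 in Molm-14 and 1.61 in OCI-AML3, FCGR2C by 5.61 and 4.02, and FCGR2B by 5.65 and 3.15. The genes given with a change here were picked after their values were seen. FCGR2C is annotated as a polymorphic pseudogene, and the split of reads between it and FCGR2B cannot be checked here. FCGR3A and FCGR3B lie in the same stretch of the chromosome, and no change is given for them.

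MYC, a factor that binds the E-box, fell to -3.26 in Molm-14 at 2 h and was at -0.91 at 24 h, and fell to -2.37 and -2.74 in OCI-AML3. The same order was seen for XBP1, at -1.66 and -1.28 in Molm-14 and -1.41 and -2.10 in OCI-AML3. No E-box was found upstream of XBP1. It was the only gene of the 52 with every Molm-14 library higher at 24 h than at 2 h. Of the genes with an E-box, HSPA9, HSPD1, HSPE1, HSP90B1 and HERPUD1 were lower at 24 h than at 2 h in every Molm-14 library. The same held for 45 of the 52 genes and for 32.5% of all genes, so it does not set the E-box genes apart from the other chaperones. The DNAJB9 libraries overlapped. MYC was not among the genes planned for description, and no relation between these genes was tested.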
